A study of Homo sapiens with 6 samples.

Results

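Long non-coding RNAs (lncRNAs) with enough reads to be measured one by one were examined in a human megakaryoblastic leukaemia cell line, MEG-01, after knockdown of the kinase MELK. The set held every gene of a GENCODE release 29 lncRNA type with a mean of at least 200 counts over the 6 libraries. It came to 156 genes of 14757 lncRNA genes in the table and 61852 genes in all. Their types were antisense (65 genes), lincRNA (57), processed transcript (28), sense intronic (2) and 4 genes of 2 further types that later releases merge into lncRNA. The rule used the mean level and not the difference between groups. Of the members, 133 had a mean of at least 200 counts in both groups, 11 fell below that in the knockdown group and 12 in the control group. The lncRNAs closest below the limit were CTBP1-DT and ENSG00000278133 with a mean of 199 counts each and ILRUN-AS1 with 198, and those closest above it were ENSG00000269970 with 201, DHRS4-AS1 with 204 and LOXL1-AS1 with 206.

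The knockdown group carried the short hairpin RNA sh2-MELK (n = 3) and the control group the empty lentiviral vector pLKO.1 (n = 3). Both groups are MEG-01 cells with no other treatment, and the library names of both start with F5. A single hairpin was used, and the series' design text calls the replicates independent. RNA was selected by its poly(A) tail and read in paired ends, so lncRNAs without a tail would be under-counted. Library totals ran from 18945176 to 20410845 counts in the knockdown and from 20208255 to 21711313 in the control.

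The deposited values look like reads to which 0, 1, 2, 10 or 100 was added at random, since 35797 genes held those 5 values alone. The added number has an SD of 38.9 counts, which is a large part of the value for a gene near 200 counts and a small part for one above 2000. MELK itself had 16, 124 and 26 counts in the knockdown libraries and 219, 206 and 238 in the control libraries. Its log2 fold change was -1.98 ± 0.69 (SE), with an adjusted p = 0.104 by edgeR, so the lower level did not pass the threshold of 0.05 although the groups did not overlap. Without knockdown library 2, which had the 124 counts, it was -3.32 with an adjusted p = 0.00271 by edgeR. Of 12 megakaryocyte markers 7 had a mean of at least 200 counts, and the 12 summed to between 2551 and 2634 CPM (counts scaled to library size) in the knockdown and between 3196 and 3306 CPM in the control. The 8 erythroid markers summed to between 470 and 487 CPM in the knockdown and between 988 and 1021 CPM in the control. Whether that lineage difference bears on any lncRNA was not tested.

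LncRNAs are transcripts without a long protein-coding frame that are often spliced, capped and polyadenylated like messenger RNA. Some hold small nucleolar RNAs (snoRNAs) in their introns. SnoRNAs guide chemical modification of ribosomal RNA, and the spliced exons of such hosts are often destroyed by nonsense-mediated decay. Several snoRNA hosts begin with a run of pyrimidines (C and T), the element that ties ribosomal protein genes to translation control by mTOR. Other lncRNAs act in the nucleus as scaffolds, bind proteins in the cytoplasm, carry microRNAs, or run opposite to or away from a coding gene.

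The start of the snoRNA hosts is shown first because hosts of this one class moved in opposite directions. Each window is the RefSeq sequence (GRCh38.p14) of 60 bases with the annotated start after base 30, and capitals mark the longest run of C and T letters within 20 bases of that start. SNHG29, SNHG7, SNHG4, SNHG3, SNHG19 and DANCR were lower in the knockdown, SNHG16 was higher, and GAS5 and SNHG1 did not pass the test. FAM30A, which holds no annotated snoRNA, is set last because it had the lowest fold change of all 156.
SNHG29 (chr17:16438957-16439016, + strand): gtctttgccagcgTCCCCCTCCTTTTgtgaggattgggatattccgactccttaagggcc
SNHG7 (chr9:136728155-136728214, - strand): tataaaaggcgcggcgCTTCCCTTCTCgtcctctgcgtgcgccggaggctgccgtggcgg
SNHG4 (chr5:139274071-139274130, + strand): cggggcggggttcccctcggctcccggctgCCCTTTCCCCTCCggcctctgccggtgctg
SNHG3 (chr1:28505913-28505972, + strand): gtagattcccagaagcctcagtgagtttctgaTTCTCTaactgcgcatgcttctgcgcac
SNHG19 (chr16:2155329-2155388, - strand): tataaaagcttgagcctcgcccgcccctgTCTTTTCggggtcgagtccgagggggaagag
DANCR (chr4:52712364-52712423, + strand): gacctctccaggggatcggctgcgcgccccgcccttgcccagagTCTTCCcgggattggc
SNHG16 (chr17:76557734-76557793, + strand): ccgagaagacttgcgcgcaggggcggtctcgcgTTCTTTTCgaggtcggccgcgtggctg
GAS5 (chr1:173869016-173869075, - strand): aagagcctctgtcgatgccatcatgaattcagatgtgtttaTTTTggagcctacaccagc
SNHG1 (chr11:62855856-62855915, - strand): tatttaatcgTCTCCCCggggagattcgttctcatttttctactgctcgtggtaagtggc
FAM30A (chr14:105917949-105918008, + strand): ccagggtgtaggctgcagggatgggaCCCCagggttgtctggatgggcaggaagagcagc

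A run of at least 8 C or T letters on the gene's strand stood in this 40-base search window in 5703 of 27305 genes with a RefSeq promoter (20.9%) and in 52 of 60 ribosomal protein genes (86.7%). Among the lncRNAs 87 matched a RefSeq promoter by symbol, and 16 of these held such a run (18.4%). Of the 13 matched hosts with an SNHG name or GAS5, 4 did: SNHG29 and SNHG4 with 13 letters, SNHG7 with 11 and SNHG16 with 8. The first 3 were lower and SNHG16 was higher in the knockdown, although SNHG7 did not pass once trends in GC content and length were removed. The match describes these letters near the annotated start only, and an annotated start can lie away from the start used in these cells.

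LncRNAs of this set moved both ways, with FAM30A, DANCR and SNHG4 among the falls and CD44-AS1 and PROSER2-AS1 among the rises. Under edgeR's quasi-likelihood test with Benjamini-Hochberg adjustment over all 28303 genes tested, 24 of the 156 lncRNAs rose, 32 fell and 100 did not pass. That is 35.9% called, against 16.5% of all genes tested and 58.6% of the 7344 genes that averaged 200 counts or more. In the same 7344 genes 28.5% were called higher and 30.0% called lower. The median log2 fold change was 0.01 over the 156 lncRNAs and 0.02 over all genes tested. Leaving out the 23 lncRNAs that reached 200 counts in 1 group only, 20 rose and 28 fell.

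Many of these lncRNAs sat low in the count range. Their median mean count was 398, against 880 for protein-coding genes with at least 200 counts. Between 200 and 500 counts 26 of 93 lncRNAs were called (28.0%), against 38.0% of all genes in that range, and at 500 counts or more 30 of 63 were called (47.6%), against 68.0%. From 500 to 1000 counts alone 9 of 32 were called (28.1%), against 60.4% of protein-coding genes in that range. Replicates were tighter among the lncRNAs at 500 counts or more, with a median coefficient of variation of 6.68% in the knockdown and 5.54% in the control, than among those from 200 to 500 counts (15.4% and 13.6%). A difference of at least 2-fold was called for 12 of the 156 (7.69%), 4 higher and 8 lower, against 10.6% of the 7344 genes. Among these 12, HSPC324, MEG3, SNHG14 and CD44-AS1 reached a mean of 200 counts only in the group where they were higher. The same holds for SNHG19, CDKN2B-AS1, H2AZ1-DT and ENTPD1-AS1 among the smaller called changes. In all, 8 called lncRNAs reached 200 counts in 1 group only, so their changes are not independent of the count limit. With the added number modelled, at 1 dispersion for all genes, 49 lncRNAs were higher and 55 lower, against 78.3% of the 7344 genes called either way.

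**Figure D1:**
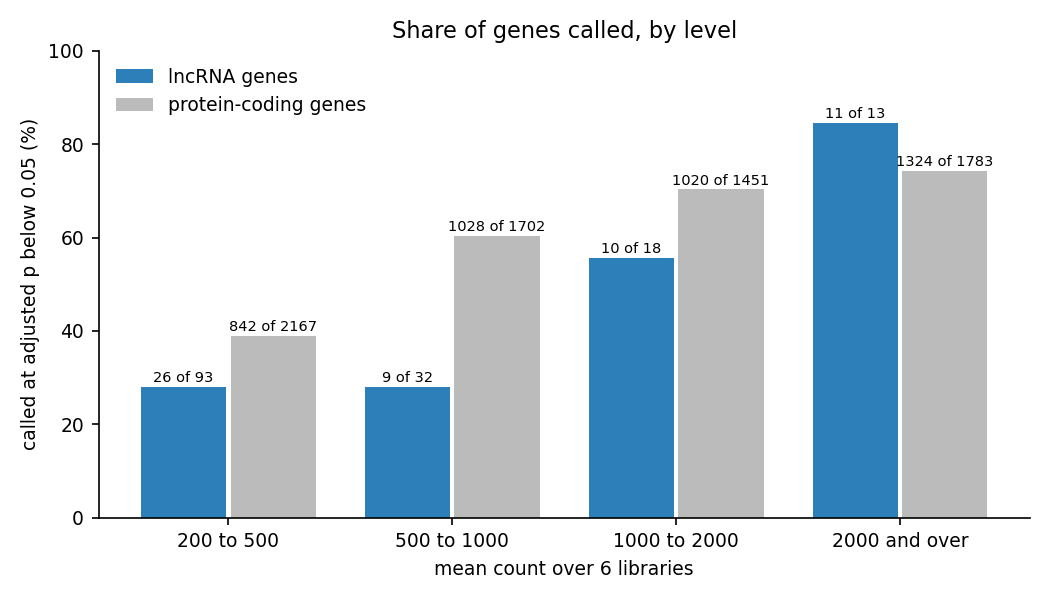
Share of genes called by edgeR at adjusted p below 0.05 (vertical axis, percent) in 4 classes of mean count (horizontal axis), for the lncRNAs and for protein-coding genes, with the number called of the number tested above each bar. The share among lncRNAs was 28.0% in the lowest class and 84.6% (11 of 13) in the highest, against 38.9% and 74.3% of protein-coding genes.

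**Figure D2:**
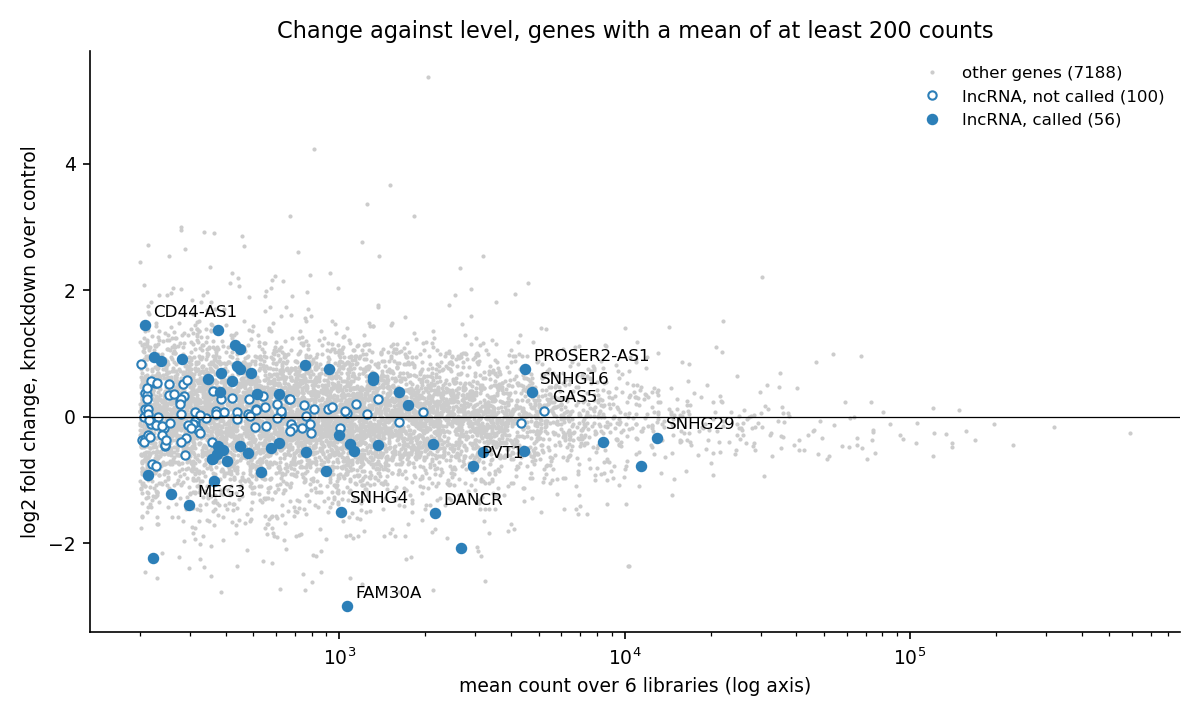
Log2 fold change of knockdown over control (vertical axis) against mean count over the 6 libraries (horizontal axis, log scale) for all 7344 genes that averaged 200 counts or more. Filled blue points are the 56 called lncRNAs and open points the 100 not called; FAM30A lies lowest of all genes drawn, at -2.99.

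Over the whole set, lncRNA counts made up between 0.662% and 0.682% of each knockdown library, against between 0.717% and 0.735% of each control library. The groups did not overlap, and an exact permutation test with 3 libraries against 3 cannot go below p = 0.1.

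FAM30A, also known as KIAA0125, is a lncRNA of the immunoglobulin heavy chain region that is part of a stemness score used in acute myeloid leukaemia. It lies on chromosome 14 from 105917979 to 105932642 (GRCh38, GENCODE release 29). It had 237, 221 and 242 counts in the knockdown libraries and 1864, 1819 and 2026 in the control libraries. Every knockdown value was far below every control value. The mean level was 11.9 ± 0.924 CPM in the knockdown and 94.9 ± 3.79 CPM in the control (SD, n = 3 each), 7.94-fold lower in the knockdown. Its log2 fold change was -2.99 ± 0.07 (SE), with an adjusted p = 1.09e-07 by edgeR, the lowest fold change of the 7344 genes with at least 200 counts. Estimated reads per library free of the added number were 233 (95% interval 214 to 254) in the knockdown and 1860 (1761 to 1950) in the control. FAM30A is also known from B cells. None of 6 lymphocyte markers, among them MS4A1, reached a mean of 200 counts. They summed to between 8.27 and 12.4 CPM in the knockdown and between 4.39 and 15.4 CPM in the control. The added number can make up much of such a sum but not all of it. CD79B had 40, 36 and 34 counts in the knockdown libraries and 49, 149 and 49 in the control libraries. CD79A had 24, 6 and 9 in the knockdown and 26, 27 and 35 in the control. CD79A, CD79B and CD3D did not pass by edgeR.

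The snoRNA hosts moved both ways, with more falls than rises. Of 15 members with an SNHG name or GAS5, 7 fell, 3 rose and 5 did not pass, with a median log2 fold change of -0.28. That is 66.7% called, close to the 58.6% of all genes with at least 200 counts. Together they made up between 0.183% and 0.185% of the knockdown libraries and between 0.19% and 0.198% of the control libraries. Of 5 further members that hold a snoRNA on their own strand, DANCR and PCAT18 fell, UBA6-DT rose, and ZFAS1 and EPB41L4A-AS1 did not pass.

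DANCR, which holds SNORA26 and a microRNA and is known for keeping progenitor cells undifferentiated, had the lowest edgeR fold change among hosts. It had 1063, 1163 and 1073 counts in the knockdown libraries and 3269, 3032 and 3402 in the control libraries. The groups were wide apart, with a log2 fold change of -1.52 ± 0.04 (SE) and an adjusted p = 2.39e-07 by edgeR.

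SNHG4, host of 2 snoRNAs, had 578, 525 and 461 counts in the knockdown libraries and 1456, 1455 and 1621 in the control libraries. It fell by 1.5 ± 0.08 on the log2 scale (adjusted p = 3.96e-06 by edgeR). All knockdown values were below all control values, and the size of the fall was close to that of DANCR. With the added number modelled SNHG4 was at -1.57 and DANCR at -1.53, so their order depended on the estimate.

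SNHG14 spans the imprinted Prader-Willi and Angelman region, with 84 annotated snoRNAs in its span and its far end opposite to UBE3A. It had 126, 123 and 205 counts in the knockdown libraries and 367, 355 and 371 in the control libraries. The third knockdown library was high next to the other two and the groups still did not overlap. Its log2 fold change was -1.22 ± 0.23 (SE, adjusted p = 0.00619 by edgeR), and estimated reads, for a log2 fold change of -1.61, were 117 (95% interval 104 to 131) in the knockdown and 357 (332 to 383) in the control. UBE3A on the other strand, silenced by SNHG14 in neurons, had 12.1 ± 0.902 CPM in the knockdown and 8.83 ± 1.99 CPM in the control and did not pass (log2 fold change 0.45 ± 0.21, adjusted p = 0.24 by edgeR).

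The other hosts that fell did so by less. SNHG19 was at -0.92 ± 0.19 on the log2 scale with about 200 counts, and SNHG3 was at -0.56 ± 0.04 with 2555, 2523 and 2533 counts in the knockdown libraries and 3868, 3660 and 3952 in the control libraries. SNHG7 was at -0.45 ± 0.05 and SNHG30 at -0.42 ± 0.09. SNHG29, the most abundant of all 156 by count, had 11165, 12021 and 11023 counts in the knockdown libraries and 14347, 14395 and 15167 in the control libraries, for a log2 fold change of -0.33 ± 0.03 (SE, adjusted p = 0.000202 by edgeR). Its groups did not overlap, and at this depth a fall of this size stood well clear of the replicate spread. PCAT18, first described in prostate cancer, was at -1.02 ± 0.18.

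Hosts that rose included 1 of the most abundant. SNHG16 had 5362, 5714 and 4822 counts in the knockdown libraries and 4136, 3929 and 4343 in the control libraries, and rose by 0.39 ± 0.04 on the log2 scale (adjusted p = 0.00032 by edgeR). SNHG6 was at 80.8 ± 4.36 CPM in the knockdown and 52.2 ± 4.6 CPM in the control (SD, n = 3 each), for a log2 fold change of 0.63 ± 0.07. SNHG15 rose by 0.19 ± 0.04 and UBA6-DT by 0.75 ± 0.08. In each of these 4 genes every knockdown level was above every control level. They were picked as called rises, so their lack of overlap is no separate evidence. The groups did not overlap in 79 of all 156 lncRNAs, and the share over all genes with at least 200 counts is not given here.

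GAS5, a host of many box C/D snoRNAs whose transcript accumulates when growth stops, did not pass. It had 5257, 5353 and 5362 counts in the knockdown libraries and 4996, 4959 and 5339 in the control libraries, with a log2 fold change of 0.10 ± 0.04 (SE, adjusted p = 0.163 by edgeR). SNHG1 had 212 ± 6.73 CPM in the knockdown and 226 ± 12.4 CPM in the control (SD, n = 3 each), and its groups overlapped (log2 fold change -0.09). SNHG8 (-0.25 ± 0.07), SNHG17 (-0.11 ± 0.07) and SNHG20 (-0.28 ± 0.28) did not pass either.

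Several host values moved once each library's trends in GC content and length were removed, an edgeR fit over the genes with at least 200 counts. SNHG7 was at -0.09 and no longer passed (adjusted p = 0.203). GAS5 changed sign and was lower, at -0.20 (adjusted p = 3.55e-05), and SNHG1 was lower at -0.36 (adjusted p = 2.54e-07) and SNHG8 at -0.29 (adjusted p = 0.00838). The rises became smaller, with SNHG16 at 0.16, SNHG6 at 0.39, SNHG15 at 0.11 and UBA6-DT at 0.45, all still called. SNHG19 was at -0.60, SNHG30 at -0.72 and SNHG29 at -0.52, also called.

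**Figure D3:**
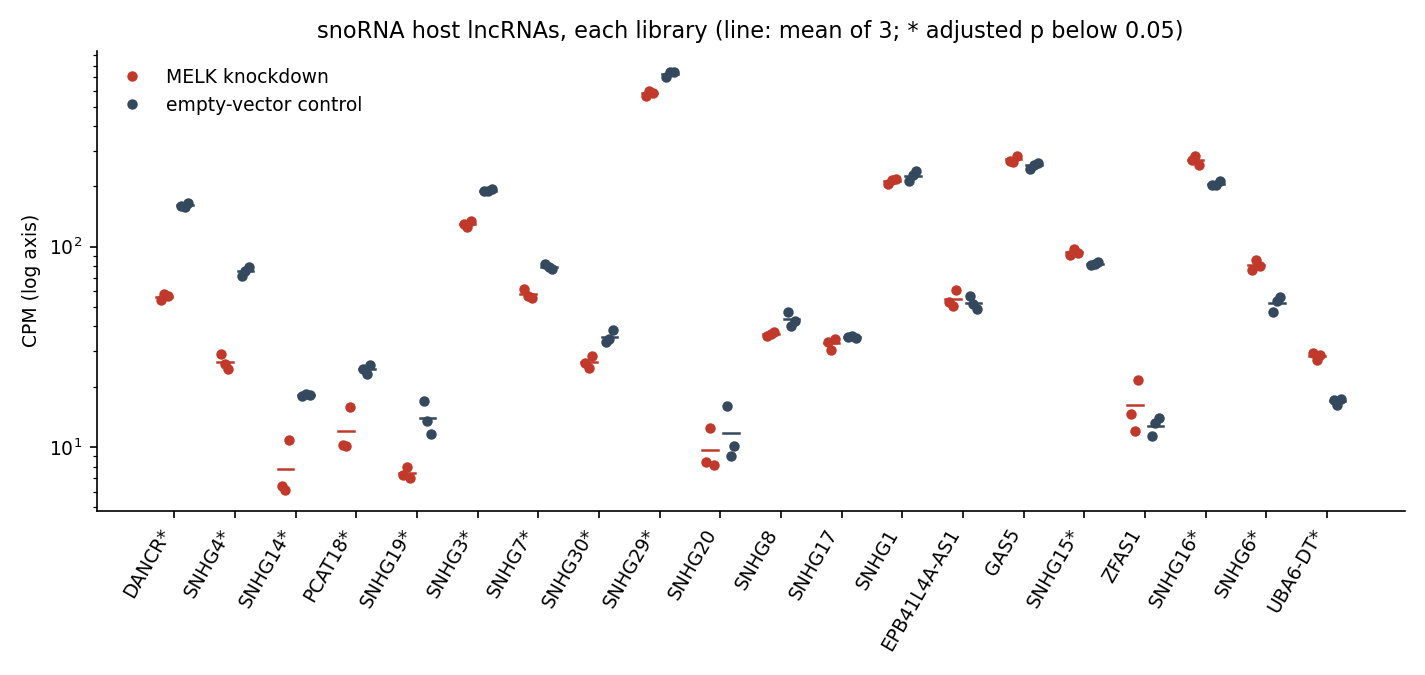
Level of 20 snoRNA host lncRNAs in each library (vertical axis, CPM, log scale), ordered by log2 fold change, with MELK knockdown libraries in red to the left of control libraries in dark blue; lines are means of 3 libraries and asterisks mark an adjusted p below 0.05. DANCR and SNHG4 show the widest gaps below the control and UBA6-DT and SNHG6 the widest gaps above it.

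The proteins that work with these hosts were spread in both directions too. Of 16 snoRNP proteins, the enzymes and core subunits that bind snoRNAs, 5 rose and 4 fell (56.2% called, against 58.6% of all genes with at least 200 counts and 16.5% of all genes tested, median log2 fold change -0.04). The H/ACA subunit GAR1 rose by 0.91 ± 0.09 and its partner NHP2 was at -0.47 ± 0.03, while the box C/D methyltransferase FBL was at -0.23 ± 0.03. Of 15 nonsense-mediated decay factors 3 rose and 3 fell (median 0.06), with the exon junction protein CASC3 at -1.23 ± 0.05 and its partner MAGOH at 0.85 ± 0.07; the central helicase UPF1 did not pass at 0.06 ± 0.04. Of 75 ribosomal protein genes tested 10 rose and 35 fell, with a median of -0.12. All 7 regulators of pyrimidine-run messengers passed, 3 higher and 4 lower, with MTOR at 0.93 ± 0.07 and the mTOR target EIF4EBP1 at -0.78 ± 0.04. Over all genes tested the median was 0.02, and the counts of these lists are to be read against the same 58.6% and 16.5%.

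Outside the hosts, the largest falls after FAM30A were in lncRNAs of little known function. ENSG00000233968 (chromosome 10, 19710328 to 19728550) had 976, 1006 and 1030 counts in the knockdown libraries and 3942, 4438 and 4584 in the control libraries, for a log2 fold change of -2.07 ± 0.07 (SE, adjusted p = 7.16e-07 by edgeR). Its knockdown values were tight and 4.2-fold below the control. HSPC324 (chromosome 9, 136648610 to 136660421), opposite to the endothelial factor gene EGFL7, had 141, 51 and 39 counts in the knockdown libraries and 335, 346 and 426 in the control libraries. The groups did not overlap and the log2 fold change was -2.23 ± 0.44 (SE, adjusted p = 0.00823 by edgeR), but leaving out knockdown library 2, control library 2 or control library 3 gave adjusted p of 0.0578, 0.0504 and 0.0589. With the added number modelled its reads were 42.1 (95% interval 34.1 to 50.8) in the knockdown and 330 (305 to 374) in the control. EGFL7 itself was at 225 ± 1.36 CPM in the knockdown and 225 ± 13.1 CPM in the control (SD, n = 3 each).

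MEG3, a growth-restraining lncRNA of the imprinted DLK1 region, had 155, 102 and 221 counts in the knockdown libraries and 445, 419 and 444 in the control libraries. Its knockdown values were scattered while its control values were tight. The log2 fold change was -1.40 ± 0.27 (SE, adjusted p = 0.00685 by edgeR), which became adjusted p = 0.0557 without knockdown library 1, and modelled reads were 125 (95% interval 112 to 140) in the knockdown and 427 (400 to 458) in the control. C10orf95-AS1 fell by 0.87 ± 0.08. PVT1, which lies beside MYC on the long arm of its chromosome and is often gained with it in cancer, had 2142, 2218 and 2027 counts in the knockdown libraries and 3883, 3558 and 3790 in the control libraries. It fell by 0.78 ± 0.03 (adjusted p = 9.91e-07 by edgeR), and MYC fell by 0.95 ± 0.04. CCDC26, a lncRNA further along the same region that is studied in myeloid leukaemia, went the other way. It had 949, 924 and 1007 counts in the knockdown libraries and 510, 648 and 510 in the control libraries, for a log2 fold change of 0.82 ± 0.12 (SE, adjusted p = 0.00197 by edgeR). MYC was chosen here for its place in the genome.

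The 4 rises above 2-fold were all in lncRNAs with a mean below 500 counts. CD44-AS1 (chromosome 11, 35210343 to 35214985) runs opposite to the adhesion receptor gene CD44. It had 290, 302 and 313 counts in the knockdown libraries and 112, 96 and 133 in the control libraries, and rose by 1.45 ± 0.18 (adjusted p = 0.000501 by edgeR). CD44 rose by 1.11 ± 0.03. CD44-AS1 had 0.99% of the counts of CD44 and shares 84 exon bases with it, and whether reads of CD44 were counted for CD44-AS1 was not tested. ENSG00000258303 (chromosome 12, 93836167 to 93838038) had 464, 587 and 565 counts in the knockdown libraries and 218, 200 and 218 in the control libraries, for a log2 fold change of 1.38 ± 0.12. ENSG00000278730 rose by 1.07 ± 0.12, and ENSG00000258232, which lies opposite to coding exons of TUBA1C, by 1.13 ± 0.14. LINC00623 rose by less than 2-fold, at 0.81 ± 0.10; 100% of the longest LINC00623 transcript matched LINC01145 at 99.1% identity, so the counts of this pair may be mixed. In none of these did the groups overlap. The genes here were picked for their called rises, so their lack of overlap is no separate evidence. It was found in 79 of all 156 lncRNAs, and the share over all genes with at least 200 counts is not given here.

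CDKN2B-AS1, also known as ANRIL, a lncRNA linked to Polycomb silencing of the cell-cycle inhibitor genes beside it, had 324, 245 and 347 counts in the knockdown libraries and 210, 180 and 119 in the control libraries. Its log2 fold change was 0.89 ± 0.25 (SE, adjusted p = 0.0472 by edgeR), and the call was lost whenever any 1 library was left out, with adjusted p up to 0.192, and with limma-voom (adjusted p = 0.0931). CDKN2B, on the other strand, rose by 1.98 ± 0.13, and CDKN2A did not pass at 0.19 ± 0.16. H2AZ1-DT, which starts beside the histone variant gene H2AZ1, rose by 0.95 ± 0.19 (adjusted p = 0.0088 by edgeR, and 0.0507 without knockdown library 2), and H2AZ1 rose by 0.68 ± 0.06. ENTPD1-AS1 rose by 0.91 ± 0.17. PROSER2-AS1, by far the most abundant riser outside the hosts, had 5750, 5735 and 5277 counts in the knockdown libraries and 3468, 3332 and 3381 in the control libraries and rose by 0.75 ± 0.03 (adjusted p = 1.56e-06 by edgeR). Its opposite gene PROSER2 was at -0.68 ± 0.09 (adjusted p = 0.000613 by edgeR), so the pair moved in opposite directions.

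**Figure D4:**
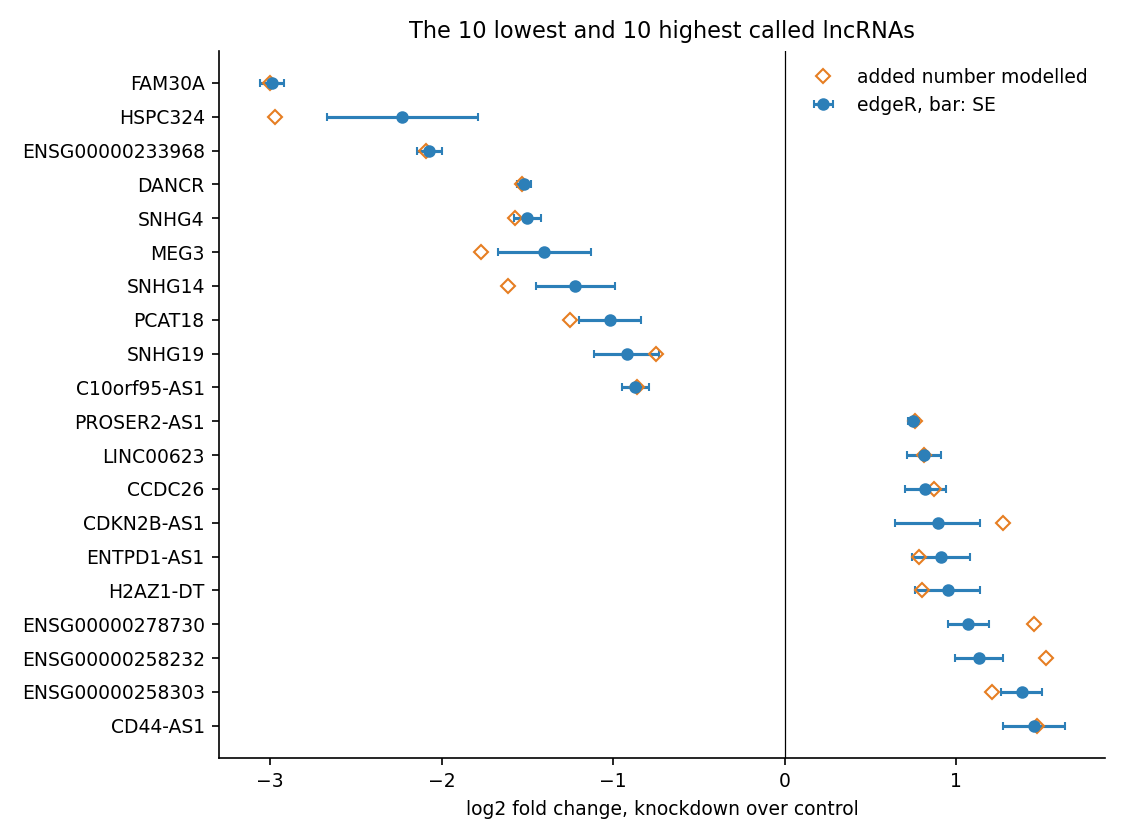
Log2 fold change of knockdown over control (horizontal axis) for the 10 lowest and the 10 highest called lncRNAs, with the edgeR estimate and its SE in blue and the estimate with the added number modelled as open orange diamonds. Both estimates have the same sign in all 20, and they part most for HSPC324, at -2.23 and -2.97.

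Per kilobase of exon the most abundant members were ENSG00000227706, ENSG00000269968, ENSG00000268555, SNHG29 and ENSG00000273149. ENSG00000227706 (chromosome 6, 67887646 to 67889339) was at 265 ± 2.51 CPM per kilobase in the knockdown and 451 ± 3.79 in the control (SD, n = 3 each). It fell by 0.77 ± 0.02 on the log2 scale (adjusted p = 3.17e-07 by edgeR), with 8457, 8578 and 7948 counts in the knockdown libraries and 14861, 13804 and 14882 in the control libraries. ENSG00000268555 was at 155 ± 1.15 CPM per kilobase in the knockdown and 225 ± 13.4 in the control and fell by 0.54 ± 0.05. The median over the 156 was 7.48 CPM per kilobase of exon, against 9.35 for protein-coding genes with at least 200 counts.

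Among widely studied nuclear and cytoplasmic lncRNAs, MALAT1, NEAT1, NORAD and OIP5-AS1 did not pass the edgeR test. MALAT1, found in nuclear speckles, had 350, 279 and 356 counts in the knockdown libraries and 292, 263 and 150 in the control libraries. The groups overlapped and it did not pass (log2 fold change 0.52 ± 0.26, adjusted p = 0.291 by edgeR). Modelling the added number gave 0.67, with adjusted p = 1.96e-09 by the likelihood test of that model. The model uses 1 dispersion for all genes, so that p does not measure the spread of MALAT1's own replicates. NEAT1, the scaffold of paraspeckles, was at 61.9 ± 7.08 CPM in the knockdown and 54.0 ± 7.23 CPM in the control (SD, n = 3 each; log2 fold change 0.20 ± 0.11), also without passing. Of 12 paraspeckle proteins 7 rose and 2 fell, with NONO at 0.21 ± 0.03, and of 10 nuclear speckle proteins 3 rose and 2 fell, with SRRM2 at -0.48 ± 0.03; of all genes with at least 200 counts 58.6% were called. NORAD, a cytoplasmic lncRNA known for its part in keeping chromosomes stable, had 1041, 1001 and 1164 counts in the knockdown libraries and 1158, 1011 and 900 in the control libraries, and its groups overlapped (log2 fold change 0.10 ± 0.11). OIP5-AS1, known as cyrano, was at -0.18 ± 0.08. With GC content and length trends removed OIP5-AS1 passed at -0.41 (adjusted p = 0.000601 by edgeR) and NEAT1 at 0.26 (adjusted p = 0.0176 by edgeR).

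MicroRNAs inside members are shown for MIR23AHG and MIR4435-2HG, 2 of the hosts that rose, and for CYTOR. The microRNA of ENTPD1-AS1, which also rose, is not shown. The mature sequences are from RefSeq (GRCh38.p14), with the seed, bases 2 to 8, in capitals. MIR23AHG holds 3 microRNA genes on chromosome 19, and MIR4435-2HG and CYTOR on chromosome 2 hold copies of the same one.
hsa-miR-23a-3p in MIR23AHG: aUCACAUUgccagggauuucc
hsa-miR-27a-3p in MIR23AHG: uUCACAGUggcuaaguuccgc
hsa-miR-24-3p in MIR23AHG: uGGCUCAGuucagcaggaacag
hsa-miR-4435 in MIR4435-2HG and CYTOR: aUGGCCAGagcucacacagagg

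The seeds of the 3 microRNAs in MIR23AHG differ from each other, and miR-4435 is the same in both of its hosts. MIR23AHG had 726, 719 and 609 counts in the knockdown libraries and 571, 502 and 572 in the control libraries, and rose by 0.36 ± 0.08 (adjusted p = 0.0136 by edgeR). The call was lost without control library 2 (adjusted p = 0.0611), knockdown library 1 (0.0599) or knockdown library 2 (0.0617). With GC content and length trends removed it was at 0.83, and MIR4435-2HG at 0.25, both called. MIR4435-2HG, which in mouse controls the lifespan of myeloid cells through its neighbour Bcl2l11, had 1770, 1951 and 1734 counts in the knockdown libraries and 1456, 1355 and 1462 in the control libraries. It rose by 0.39 ± 0.04 (adjusted p = 0.000269 by edgeR), and BCL2L11, which encodes the death-promoting protein BIM, rose by 0.47 ± 0.06 (adjusted p = 0.000446 by edgeR). BCL2L11 overlaps MIR4435-2HG on the other strand and shares 727 exon bases with it. Whether reads of 1 gene were counted for the other was not tested. CYTOR, at 32.0 ± 2.53 CPM in the knockdown and 31.1 ± 1.36 CPM in the control, did not pass. The longest MIR4435-2HG transcript matched CYTOR over 68.2% of its length at 99.5% identity, so reads may be split between them.

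A further limit concerns lncRNAs that lie inside a coding gene. The strand setting of the counting is not given in the sources used here, and 17 members have at least 80% of their exon bases opposite to coding exons. For 16 of these the opposite gene had a mean of at least 200 counts, and the lncRNA had a median of 3.31% of its partner's counts. The shares ran from 1.21% to 263%. HSD17B1-AS1 (263%) and ENSG00000274425 (106%), both called, had more counts than their partners. Across these 16 pairs the log2 fold changes ran together, with Pearson's r of 0.96 and Spearman's rho of 0.97. These values are a description only, since reads of 1 gene of a pair may be counted for the other. All 6 called lncRNAs of this kind had a called partner of the same sign. ENSG00000258232 opposite to the tubulin gene TUBA1C was at 1.13 ± 0.14 and TUBA1C at 1.03 ± 0.03. ENSG00000269968 opposite to GAPDH was at -0.43 ± 0.09, and GAPDH at -0.62 ± 0.02; the call of this lncRNA was lost without control library 1, control library 3, knockdown library 2 or knockdown library 3, with adjusted p up to 0.0982, and with GC content and length trends removed (-0.09, adjusted p = 0.231). ENSG00000273149 opposite to TPT1 was at 0.08 ± 0.06, and TPT1 at 0.06. For these loci the lncRNA and its partner cannot be told apart. Some members below the limit of 80% also share exon bases with a far more abundant partner. VIM-AS1 had 1.47% of the counts of VIM, H2AZ1-DT 4.37% of those of H2AZ1 and CD44-AS1 0.99% of those of CD44. Sharing of reads in these pairs was not tested.

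A further group of lncRNAs starts near a coding gene on the other strand and shares less sequence with it. Over 39 such pairs, with starts within 5 kb and a partner of at least 200 counts, Pearson's r was 0.11 and Spearman's rho 0.10, and 22 had the same sign. In 4 pairs both genes were called, 3 with the same sign. ENSG00000267002 was at -0.43 ± 0.06 while NBR1, an autophagy receptor gene that starts beside it, rose by 0.45 ± 0.06. BOLA3-DT fell by 0.69 ± 0.10, and BOLA3 did not pass at 0.20 ± 0.14. SNHG19 was at -0.92 and its divergent neighbour TRAF7 at -0.17 ± 0.03.

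**Figure D5:**
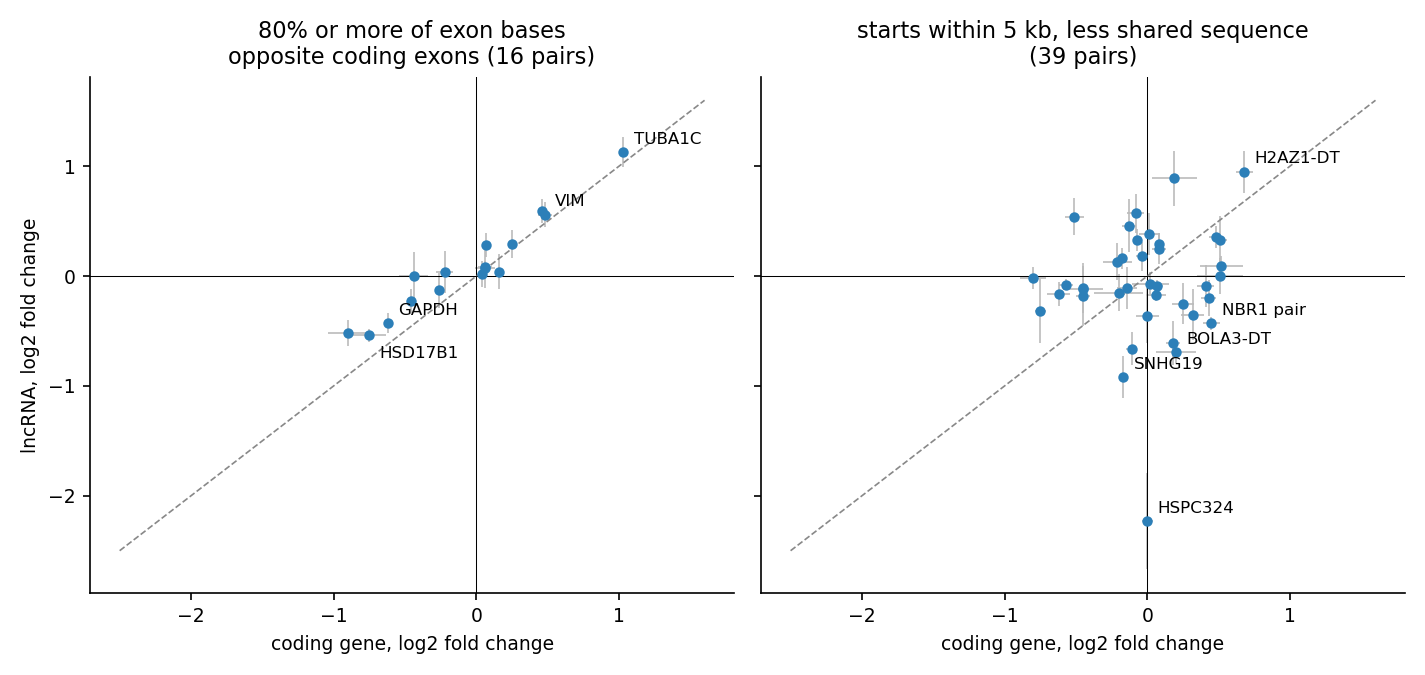
Log2 fold change of each lncRNA (vertical axis) against that of its opposite-strand coding gene (horizontal axis), with SE bars and a dashed line of equality. The 16 pairs with at least 80% of lncRNA exon bases opposite to coding exons (left) lie along the line, and the 39 pairs with starts within 5 kb and less shared sequence (right) scatter around 0, with HSPC324 at -2.23 beside EGFL7, whose mean was 225 CPM in both groups.

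Of the remaining called members, a further 8 rose by between 0.36 and 0.75 on the log2 scale, among them LINC02762 (0.75 ± 0.07) and VIM-AS1 (0.36 ± 0.10), and a further 12 fell, from -0.85 ± 0.05 for LINC00963 to -0.29 ± 0.06 for ENSG00000279669. VIM-AS1 lost its call whenever any 1 library was left out, and with GC content and length trends removed it was at -0.04. ENSG00000279669 kept its call in 4 of the 6 fits with a library left out (adjusted p up to 0.0588) and lost it with those trends removed, at -0.13 (adjusted p = 0.111 by edgeR). The 100 lncRNAs that did not pass ran from -0.78 (ENSG00000260997) to 0.84 (ENSG00000269970), and 67 of them had a mean below 500 counts. Called higher, called lower and uncalled lncRNAs had a median GC content of 45.4%, 49.1% and 49.4%.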

How the data were processed

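The deposited table gives raw counts, 1 column for each of the 6 libraries. Per the submitters' processing notes, STAR, HTSeq, fastp, FastQC, R 4.3.3 and DESeq2 were used with build GRCh38. Strand setting and annotation release: not given in the sources used here. Types, coordinates and exon lengths come from GENCODE release 29; 15 genes with at least 200 counts but no entry there and 4 of unresolved type were left out.

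Counts were fitted with edgeR 4.0.16 (TMM, filterByExpr at a minimum count of 10, robust quasi-likelihood test, no block) over 28303 genes, Benjamini-Hochberg adjusted p below 0.05. Alternatives included limma 3.58.1, DESeq2 1.42.0 and a likelihood model in which 0, 1, 2, 10 or 100 is added to a negative binomial count. That model used 1 dispersion of 0.0014 for every gene, estimated from genes with high counts. Its p-values and intervals cover counting error and that dispersion, not the replicate spread of each gene. Scripts were tested on simulated data. Copies were found with BLAST 2.17.0 at 95% identity. CPM used TMM library sizes.

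Named genes were all SNHG-named members, GAS5, FAM30A, members of listed roles, hosts of snoRNAs or microRNAs, the 10 highest and 10 lowest called, the 5 most abundant per kilobase and those at the limit; others named were chosen after their values were seen. Members and lists were chosen with earlier results of these data known.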

Additional observations from a re-analysis of the deposited data

How the results depend on the processing

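The number of lncRNAs called moved with how the counts were treated. Against 24 higher and 32 lower, modelling the added number gave 49 and 55, a filter at a mean of 500 counts gave 15 and 21, a test against a 1.5-fold change gave 5 and 9, and restricting the set to a mean of at least 500 gave 10 and 20; the last and the filter test fewer lncRNAs (63). Leaving out 1 library at a time gave 20 to 22 higher and 27 to 32 lower, 10 to 11 SNHG-named hosts and GAS5 called (9 to 13 under the other settings but 1), and a FAM30A log2 fold change of -3.04 to -2.93. The 1.5-fold test called 1 host, 0 higher and 1 lower. MELK passed with limma-voom (-2.48), without a filter (-1.98) and without knockdown library 2 (-3.32, adjusted p = 0.00271), and ran from -3.32 to -1.54 with a library left out. GAS5 changed sign to -0.20 once GC content and length trends were removed, and the cause was not tested. Of 929 values of 51 named members 855 kept their direction and side of the threshold.

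The replicate numbers gave no clear sign of pairing. After each gene's group mean was subtracted, what remained in same-numbered libraries correlated between the groups at 0.0998, -0.0124 and -0.0801. Whether the samples were paired is not settled by these values. With the replicate number as a block 21 lncRNAs were higher and 31 lower, 10 hosts were called, FAM30A was at -2.99 and MELK at -2.52.

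The added number has an SD of 38.9 counts, which limits the precision of low counts. The share of lncRNAs called was 28.0% from 200 to 500 counts and 28.1% from 500 to 1000. Among protein-coding genes it was 38.9% and 60.4%. What sets these shares was not tested.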
